A study of Rattus norvegicus with 56 samples.

Results

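The time effect in livers of male rats on the high-fat, high-fructose diet, labelled HFhf, was taken from 7 of the 56 libraries of the series: 4 collected at ZT16 and 3 at ZT4. These 7 were chosen by their labels for sex, time and study group, and no measured value entered the choice. Zeitgeber time (ZT) counts hours from lights on in a 12 h light and 12 h dark cycle, so ZT4 lies in the light phase and ZT16 in the dark phase, when rats mostly feed. Per the labels, Sprague-Dawley dams of the HFhf group received a Western diet and 25% fructose in the drinking water from gestational day 11. The design text says that this diet was given throughout, and the livers of the offspring were taken at day 180. Males of the CON group (3 libraries at each time) had regular chow throughout. Females of the HFhf group (3 at ZT4 and 4 at ZT16) shared the diet of the males. Males labelled IUGR-HFhf (3 at ZT4 and 4 at ZT16) came from dams held to 50% fewer calories from gestational day 10 until birth and had the HFhf diet after birth. The labels do not say which offspring shared a litter, so litter was not in the fit. P-values measure the spread between libraries within each of 16 groups of sex, time and study group, over all 56 libraries. Besides the groups above, the fit held females of CON and IUGR-HFhf and rats of both sexes labelled IUGR-RC. The IUGR-RC labels give the same 50% restriction from gestational day 10. Whole-liver RNA was measured, in which fewer cells of a type and less RNA per cell cannot be told apart.

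The liver keeps daily time with a loop of transcription factors. CLOCK or NPAS2, paired with the product of Arntl (BMAL1), activates the Per, Cry, Nr1d1, Nr1d2 and Dbp genes through E-box elements, and PER and CRY proteins repress that activation. NR1D1 and NR1D2 (REV-ERB alpha and beta) repress Arntl, Npas2, Cry1 and Nfil3 through ROR elements, while DBP and TEF activate and NFIL3 represses genes with D-box elements. Feeding is a strong timing signal for this loop in the liver, and many genes of lipid, glucose and bile acid metabolism follow it.

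The 5 clock genes that passed the test in HFhf males were Nr1d1, Nr1d2, Dbp, Cry1 and Per2, and promoters are shown for the 4 of them that are in the RefSeq promoter table (GRCr8 build, from 250 bases before to 50 after the start of the gene). They are shown because the 3 genes that fell and Per2, which rose, are known targets of the same E-box activators. Capitals mark a match to the D-box letters TTANGTAA; the E-box letters CACGTG and the ROR element core TNGGTCA were searched as well, on both strands, and the 3 motifs do not overlap in these windows.
Nr1d1 (chr10:84231763-84232062, minus strand): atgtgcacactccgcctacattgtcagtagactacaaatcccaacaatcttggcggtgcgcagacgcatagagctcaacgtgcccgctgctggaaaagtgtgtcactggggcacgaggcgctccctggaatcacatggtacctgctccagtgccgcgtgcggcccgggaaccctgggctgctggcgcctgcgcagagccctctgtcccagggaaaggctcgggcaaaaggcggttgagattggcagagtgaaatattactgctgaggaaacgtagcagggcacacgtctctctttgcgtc
Nr1d2 (chr15:9954784-9955083, plus strand): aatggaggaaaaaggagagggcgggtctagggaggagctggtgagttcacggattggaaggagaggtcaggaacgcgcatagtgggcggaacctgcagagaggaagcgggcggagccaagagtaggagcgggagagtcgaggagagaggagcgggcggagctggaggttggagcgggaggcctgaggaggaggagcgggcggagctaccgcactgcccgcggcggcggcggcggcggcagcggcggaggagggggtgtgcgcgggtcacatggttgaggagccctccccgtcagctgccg
Dbp (chr1:105312006-105312305, plus strand): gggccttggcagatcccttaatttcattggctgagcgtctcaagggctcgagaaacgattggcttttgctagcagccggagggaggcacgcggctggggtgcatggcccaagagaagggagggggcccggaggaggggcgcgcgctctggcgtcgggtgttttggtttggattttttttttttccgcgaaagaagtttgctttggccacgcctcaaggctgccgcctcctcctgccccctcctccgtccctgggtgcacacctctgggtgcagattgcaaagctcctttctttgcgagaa
Per2 (chr9:99496944-99497243, minus strand): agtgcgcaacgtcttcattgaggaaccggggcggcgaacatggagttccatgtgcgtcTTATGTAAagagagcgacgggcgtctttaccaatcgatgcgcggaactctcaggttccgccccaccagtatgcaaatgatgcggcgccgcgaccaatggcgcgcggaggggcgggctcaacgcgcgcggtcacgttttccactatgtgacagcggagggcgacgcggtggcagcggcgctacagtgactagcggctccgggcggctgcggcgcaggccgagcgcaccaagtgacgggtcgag

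The Per2 window holds 1 D-box match, starting 192 bases before the start of the gene, and the other windows hold none of the 3 motifs. The E-box letters occur in 9.29% of the 8949 promoters of tested genes, the D-box letters in 1.29% and the ROR core in 10% of them. Among the 233 promoters of genes called higher at ZT16 the E-box letters occur in 8.58%, the D-box letters in 2.58% and the ROR core in 12.9%. Among the 174 of genes called lower they occur in 14.4%, 0.575% and 9.77%. A missing match says only that these letters are not in this window. The count data are on rn6, so these GRCr8 positions were used only to read the sequences.

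In HFhf males 489 of 11047 tested genes (4.43%) passed the test between ZT16 and ZT4, by edgeR's quasi-likelihood F test with Benjamini-Hochberg adjusted p under 0.05. Of these, 269 (2.44% of tested genes) were higher and 220 (1.99%) were lower at ZT16. Most changes were small: 96 of the called genes moved by at least 1 on the log2 scale, 63 of them up and 33 down, and 25 moved by at least 2. The ranges of CPM, the reads of a gene relative to the scaled size of its library, at both times did not overlap for 437 of the 489 called genes, against 1771 of all 11047 (16%). The 4 ZT16 libraries held 6.38 to 7.77 M reads in genes (M for mega) and the 3 ZT4 libraries 7.97 to 11.4 M, so depth also separated the times. With the 7 libraries thinned to the smallest of them, 480 genes were called, 431 of them among the 489.

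Single libraries weighed on these counts. In ZT16 replicate 3 the 27 skeletal muscle markers summed to 760.1 CPM, against 9.65 to 11.4 CPM in the other ZT16 libraries and 11.4 to 22.2 CPM at ZT4. The muscle actin gene Acta1 stood at 124.5 CPM there, the myosin gene Myh4 at 100.5 CPM and the calcium pump gene Atp2a1 at 84.3 CPM. None of the 21 tested muscle markers was called by edgeR, DESeq2 or limma voom. Of them 13 had an unadjusted p under 0.05, beside 2028 of all 11047 tested genes. Without this library 426 genes were called, 373 of them among the 489. ZT4 replicate 2 departed from its group at several genes described below, and without it 707 genes were called, 426 of them among the 489. Without ZT4 replicate 1 the count was 142, and without ZT4 replicate 3 it was 157. Without ZT16 replicate 2 it was 290. Hepatocyte markers summed to 173154 to 215299 CPM at ZT4 and 178620 to 238549 CPM at ZT16 over 12 genes, none of them at 0 in any of the 7 libraries. Endothelial markers summed to 750.0 to 769.8 CPM at ZT4 and 636 to 723 CPM at ZT16, and bile duct markers to 82.9 to 93.3 and 68.3 to 77.5 CPM, so both were lower at ZT16 without overlap. No marker of macrophages, stellate cells, lymphocytes, neutrophils, red blood cells, adipocytes or exocrine pancreas was called by edgeR. Macrophage markers summed to 454 to 675 CPM at ZT4 and 552 to 829 CPM at ZT16, with overlap. At an unadjusted p under 0.05 were 5 of 15 macrophage and 4 of 13 endothelial markers, again beside 2028 of all 11047 tested genes. Limma voom called 1 and 2 of these markers, and DESeq2 1 and 0. The part of these cell types in the results was not tested. The Y-linked gene Eif2s3y stood at 27.3 to 41.8 CPM in the 7 males and at 0 to 0.05 CPM in the 28 female libraries. All 28 male libraries, these 7 among them, held 23.1 to 132 CPM.

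Among the clock genes, the REV-ERB repressors fell in HFhf males. Nr1d1 stood at 176, 153 and 129 CPM in the 3 ZT4 libraries and at 2.66, 1.65, 3.7 and 3.22 CPM in the 4 ZT16 libraries. The ranges were far apart, and its log2 ratio of ZT16 to ZT4 was -5.75 (SE 0.61, adjusted p = 5.57e-08). Its relative Nr1d2 fell from 108, 91.6 and 122 to 42.5, 21.3, 38 and 29.5 CPM, a log2 change of -1.70 (SE 0.32, adjusted p = 0.00135). Every ZT16 library was below every ZT4 library for both. Dbp, the D-box activator, fell from 115, 60.2 and 106 to 14.7, 12, 18 and 11 CPM (log2 -2.75, SE 0.82, adjusted p = 0.0433). Its groups did not overlap, and ZT4 replicate 2 was the lowest of the ZT4 libraries. The Dbp call was lost when any library other than ZT4 replicate 2 was left out (ZT4 replicates 1 or 3 or ZT16 replicates 1, 2, 3 or 4, adjusted p up to 0.161), while Nr1d1 and Nr1d2 kept theirs in each of 18 alternatives.

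Among the Per and Cry repressors, Cry1 rose from 6.63, 5.39 and 6.82 CPM at ZT4 to 33.6, 33.6, 24 and 32.9 CPM at ZT16 (log2 2.29, SE 0.29, adjusted p = 8.95e-07). ZT16 replicate 3, the library with muscle transcripts, was the lowest of the 4 but still above all ZT4 libraries. Per2 rose from 41.2, 36.4 and 47.2 to 134, 79.5, 148 and 121 CPM (log2 1.54, SE 0.40, adjusted p = 0.0178). The groups did not overlap, and ZT16 replicate 2 was the lowest of the 4. Per2 no longer passed when a ZT4 library was left out (ZT4 replicates 1, 2 or 3, adjusted p up to 0.102). Per1 at 19.3, 20.3 and 34 CPM at ZT4 and 20.4, 48.3, 37.3 and 42.3 CPM at ZT16 (log2 0.59, adjusted p = 0.567) overlapped between times. Cry2 (log2 0.37, adjusted p = 0.273) and Per3 (log2 -1.06, adjusted p = 0.329) did not overlap but missed the threshold.

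The activator arm did not pass in HFhf males. Arntl stood at 13.6, 20.5 and 13.3 CPM at ZT4 and 31.3, 41.1, 31 and 39.9 CPM at ZT16, a log2 difference of 1.19 (SE 0.55, adjusted p = 0.236). Npas2 stood at 19.8, 27.8 and 18.2 CPM at ZT4 and 3.93, 15.3, 9.66 and 7.46 CPM at ZT16 (log2 -1.28, SE 0.58, adjusted p = 0.22). Neither pair of groups overlapped, but both genes varied widely between libraries of the series. Clock, the partner of BMAL1, overlapped, at 109, 111 and 118 CPM at ZT4 and 123, 107, 104 and 104 CPM at ZT16 (log2 -0.041, SE 0.14, adjusted p = 0.917). Of the 24 genes on the core clock list 20 were matched and tested: 2 rose, 3 fell and 15 did not pass, with a median log2 fold change of 0.02 beside 0.01 over all tested genes. Over all tested genes 2.44% were called higher and 1.99% lower. The groups did not overlap for 13 of the 20, beside 1771 of all 11047 tested genes (16%). Among those that did not pass, Ciart (log2 -2.75, adjusted p = 0.0636), Usp2 (log2 1.09, adjusted p = 0.22), Tef (log2 0.067, adjusted p = 0.945) and Bhlhe40 (log2 0.18, adjusted p = 0.811) differed in size and sign.

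Of the 5 called clock genes, Nr1d1, Nr1d2 and Dbp had another time effect in CON males, while Cry1 and Per2 rose there too. The difference of the time effects was tested as an interaction in the same fit. Dbp rose in CON males from 3.56, 4.49 and 6.47 CPM at ZT4 to 139, 58.4 and 58.5 CPM at ZT16, a log2 change of 4.12 (adjusted p = 0.00988), where it fell in HFhf males. The difference of the effects, HFhf minus CON, was -6.87 (SE 1.31, adjusted p = 0.00342). Nr1d1 stood at 23.2, 20.3 and 64.5 CPM at ZT4 and 40.8, 18.8 and 23.1 CPM at ZT16 in CON males, so its groups overlapped there (log2 -0.40), and the difference was -5.35 (SE 0.82, adjusted p = 0.000969). HFhf males had higher Nr1d1 than CON males at ZT4 in every library and lower at ZT16 in every library; these single-time contrasts are given as values and were not tested here. Nr1d2 rose in CON males from 39.7, 38.8 and 63.1 to 127, 92.6 and 98.9 CPM, against its fall in HFhf males (difference -2.87, SE 0.48, adjusted p = 0.00185). Per3 went from 3.27, 2.11 and 5.43 to 63.8, 52 and 54.7 CPM in CON males, while in HFhf males it went from 35, 20.7 and 36.4 to 17.8, 7.65, 20 and 13 CPM. Its difference was -5.03 (SE 0.94, adjusted p = 0.00269).

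**Figure D1:**
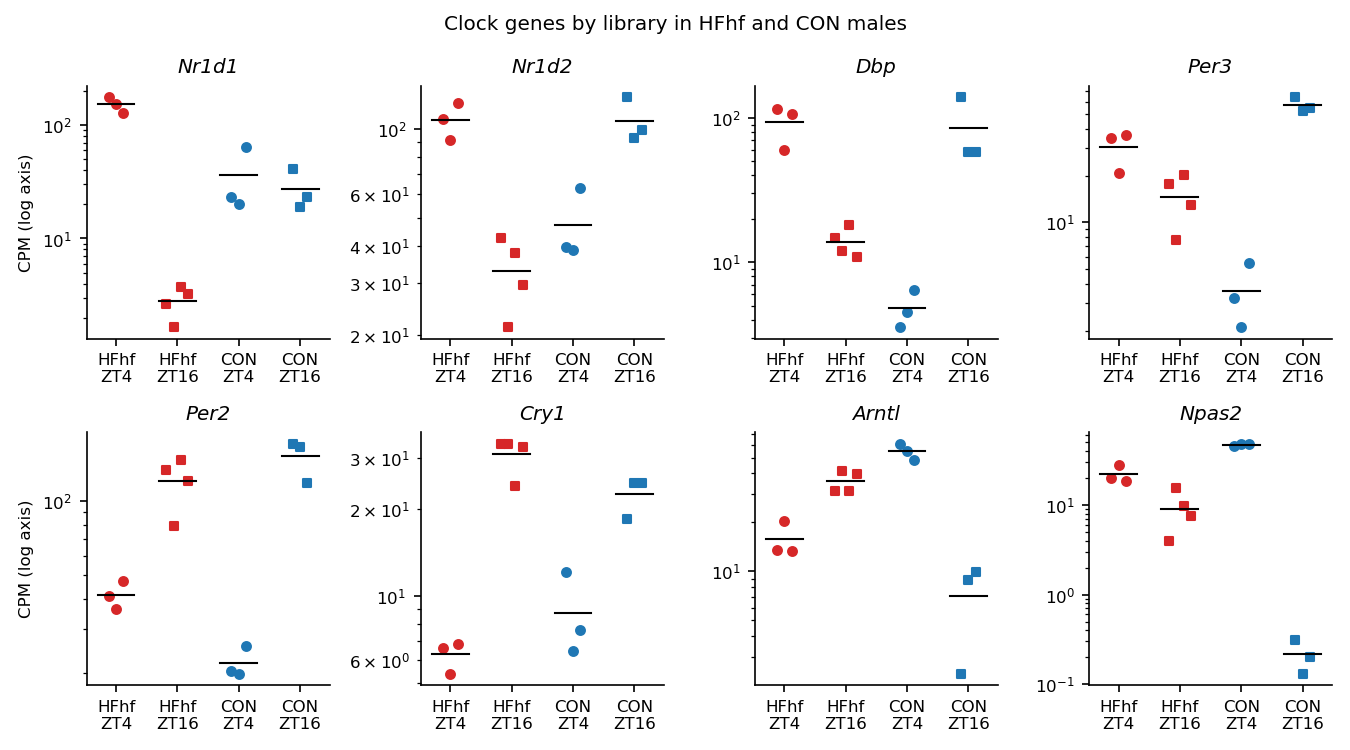
CPM of 8 clock genes on log axes in every library of HFhf males (red) and CON males (blue) at ZT4 (circles) and ZT16 (squares), with the group mean as a line. Nr1d1, Nr1d2, Dbp and Per3 are lower at ZT16 in HFhf males, while Dbp, Nr1d2 and Per3 are higher at ZT16 in CON males; Per2 and Cry1 are higher at ZT16 in both.

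The activators were also apart. Arntl fell in CON males from 60.6, 54.5 and 48.6 to 2.36, 8.82 and 9.95 CPM (log2 -2.91), whereas all 4 ZT16 libraries of HFhf males were above all ZT4 libraries, and the difference was 4.10 (SE 0.84, adjusted p = 0.00886). Npas2 fell in CON males from 45.2, 47.5 and 47.7 CPM to 0.315, 0.132 and 0.203 CPM and was still at 3.93 CPM or more at ZT16 in each HFhf male (difference 6.44, SE 1.33, adjusted p = 0.00949). Nfil3, the D-box repressor, fell in CON males (log2 -1.09) and differed from HFhf males by 1.53 (SE 0.33, adjusted p = 0.0125). Timeless rose in CON males (log2 1.91) with a difference of -2.10 (SE 0.40, adjusted p = 0.00267). In all, 8 of the 20 core clock genes differed in their time effect, 3 upwards (Arntl, Nfil3, Npas2) and 5 downwards (Dbp, Nr1d1, Nr1d2, Per3, Timeless), beside 50 of all 11047 genes (0.453%). Dbp, Nr1d1, Nr1d2, Per3 and Timeless kept their call in each of 24 alternative fits, Arntl in 23 (not without ZT16 CON replicate 1), Npas2 in 23 (not with limma voom) and Nfil3 in 20. Without ZT16 CON replicate 1 the adjusted p was 0.0569 for Arntl, and with limma voom it was 0.103 for Npas2. Nfil3 missed without ZT4 HFhf replicate 1, ZT4 CON replicate 2 or ZT16 CON replicate 1. Cry1 and Per2, which rose in both groups, did not pass for a difference (Cry1 0.91, adjusted p = 0.477; Per2 -1.26, adjusted p = 0.5).

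**Figure D2:**
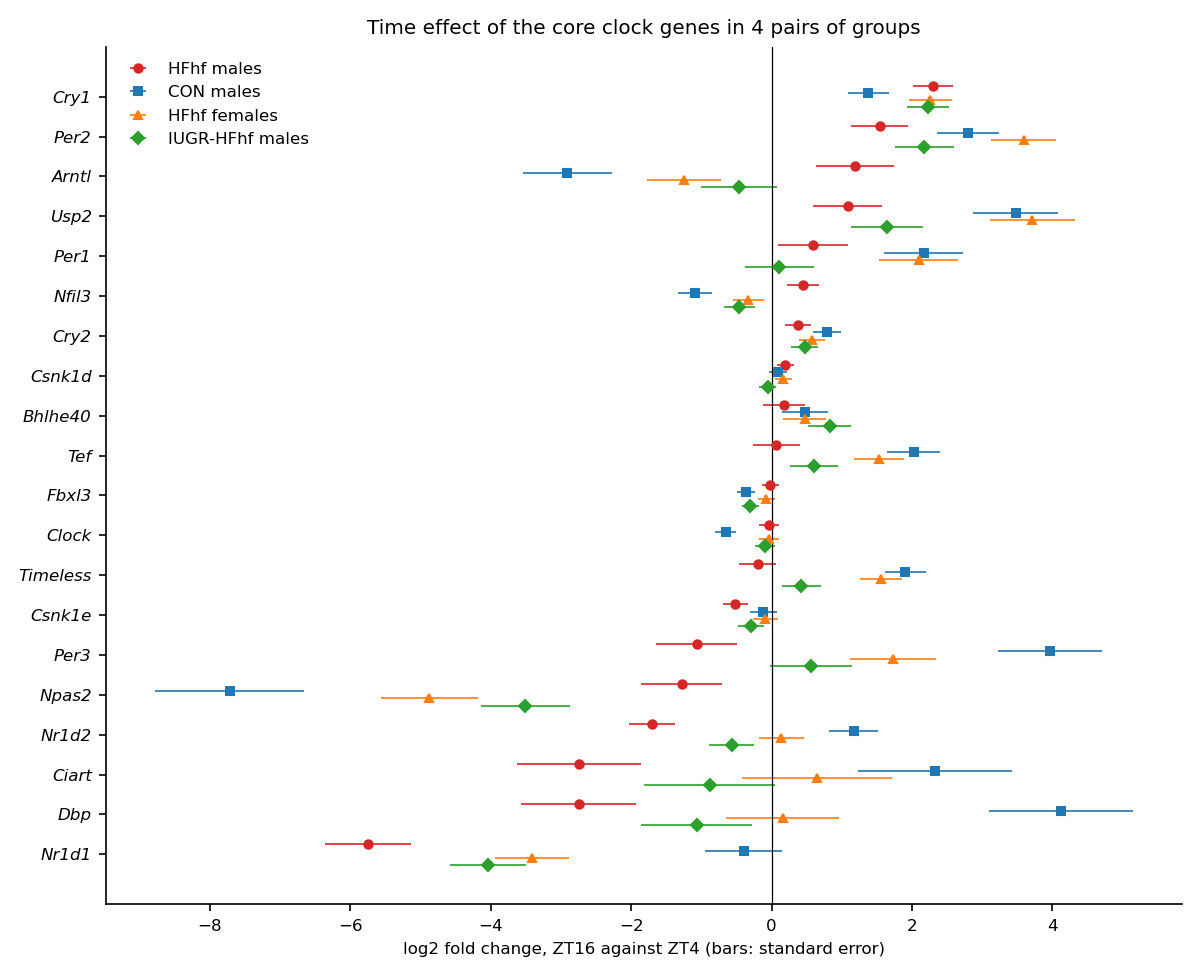
Log2 fold change at ZT16 against ZT4, with its standard error, for the 20 core clock genes in HFhf males (red circles), CON males (blue squares), HFhf females (orange triangles) and IUGR-HFhf males (green diamonds). Dbp stands at -2.75 in HFhf males and 4.12 in CON males, and Nr1d1 at -5.75 and -0.40.

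With 2 times of day, timing and amplitude cannot be told apart. No library of HFhf males held the CON pattern of Dbp: the lowest ZT4 value was 60.2 CPM and the highest ZT16 value 18 CPM, and in CON males the highest ZT4 value was 6.47 CPM and the lowest ZT16 value 58.4 CPM. The log2 changes of Nr1d1 and Dbp in the other HFhf groups lay between those values. In HFhf females Nr1d1 fell from 73, 73.3 and 129 to 3.44, 12.4, 10.6 and 8.53 CPM (log2 -3.41, adjusted p = 5.28e-05), and Dbp went from 12.7, 13.8 and 73.2 to 16.3, 36.8, 53.6 and 43.6 CPM with overlap (log2 0.16, adjusted p = 0.943). In IUGR-HFhf males Nr1d1 fell from 91.7, 146 and 165 to 6.32, 3.46, 14.1 and 8.67 CPM (log2 -4.04, adjusted p = 6.96e-06), and Dbp stood at 24.9, 76.8 and 77.7 CPM at ZT4 and 29.9, 12, 44.2 and 28.3 CPM at ZT16 (log2 -1.06, adjusted p = 0.411). Npas2 fell in both (log2 -4.87 in the females, adjusted p = 1.69e-05; log2 -3.51 in the IUGR-HFhf males, adjusted p = 0.000543). Against HFhf females, 4 of the 20 core clock genes differed in the time effect, beside 245 of all 11047 genes (2.22%). They were Npas2 (3.59, adjusted p = 0.0329), Nr1d2 (-1.84, adjusted p = 0.0303), Per2 (-2.05, adjusted p = 0.0462) and Timeless (-1.75, adjusted p = 0.0193). Each of these 4 was lost without male ZT4 replicate 1 or 3 or female ZT4 replicate 1, among other libraries, with adjusted p up to 0.112 for Npas2, 0.109 for Nr1d2, 0.155 for Per2 and 0.0818 for Timeless. Against IUGR-HFhf males none of the 20 differed.

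Over all genes, 591 were called in CON males (5.35%), 1011 in HFhf females (9.15%) and 1194 in IUGR-HFhf males (10.8%), each with its own libraries. Of the genes called in HFhf males, 105 were also called in the same direction in CON males, which is 21.5% of the HFhf list and 17.8% of the CON list. Both lists held 3 genes in opposite directions, Dbp, Nr1d2 and Lta4h, which encodes leukotriene A4 hydrolase. With IUGR-HFhf males 233 were shared in direction (47.6% and 19.5%), and with HFhf females 96 (19.6% and 9.5%); no gene was called in opposite directions in either pair. The time effect itself differed from CON males for 50 genes, 30 upwards and 20 downwards. Of the 50, 43 had opposite signs in HFhf and CON males, which choosing genes by a difference favours. Of these 50 genes, 15 were called in HFhf males, 38 in CON males and 3 in both, all 3 in opposite directions. Outside the clock, Hsd17b2, which encodes a dehydrogenase that inactivates estradiol and testosterone, fell in HFhf males from 286, 315 and 448 to 79.7, 67.5, 56.5 and 58.2 CPM (log2 -2.42, SE 0.62, adjusted p = 0.0167). In CON males it stood at 42, 80.2 and 66.2 CPM at ZT4 and 563, 174 and 109 CPM at ZT16, and the difference was -4.58 (SE 0.93, adjusted p = 0.00771), lost without ZT16 CON replicate 1, the highest of the CON males (adjusted p = 0.0855). The beta-tubulin gene Tubb2a stood at 9.78, 14.7 and 9.94 CPM at ZT4 and 21.4, 35.3, 24.9 and 27.1 CPM at ZT16 in HFhf males and fell in CON males (log2 -2.39), with a difference of 3.64 (SE 0.66, adjusted p = 0.00266) in each of the 24 alternatives. St8sia1, a ganglioside sialyltransferase gene, differed by 4.22 (SE 0.97, adjusted p = 0.0231) but passed in 14 of 24, with adjusted p up to 0.122 when a library was left out.

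**Figure D3:**
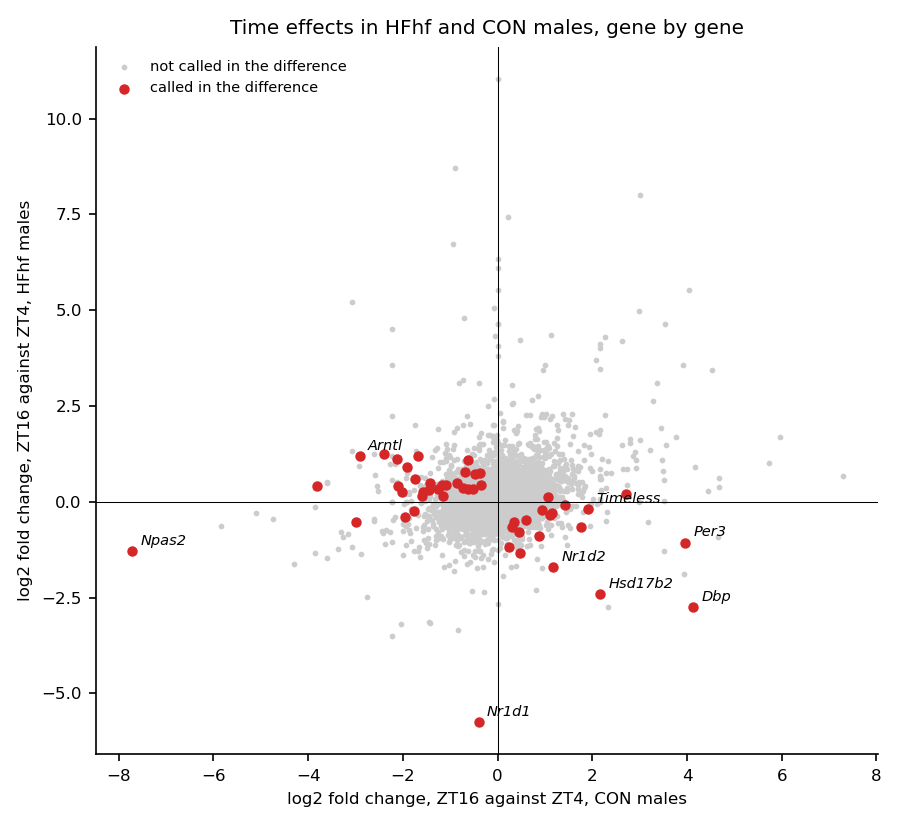
Each point is a tested gene, with its log2 fold change at ZT16 against ZT4 in CON males on the x axis and in HFhf males on the y axis; red points are the 50 whose time effect differed between both groups. Most red points lie in the quadrants of opposite sign, with Dbp, Per3, Nr1d2 and Hsd17b2 at the lower right and Arntl at the upper left.

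No gene passed for a difference between HFhf males and IUGR-HFhf males (0%), by edgeR, DESeq2 or limma voom; 938 had an unadjusted p under 0.05, and leaving out a library gave at most 2. Between HFhf males and HFhf females 245 genes differed (2.22%), 133 upwards and 112 downwards, and 228 of them had opposite signs. Of the 245, 73 were called in HFhf males, 128 in HFhf females and 1 in both, in the same direction. Choosing genes by a difference favours opposite signs, so the 228 do not count reversals. Depth moved in opposite directions here: the females held 5.94 to 8.68 M reads at ZT4 and 9.53 to 15.1 M at ZT16. With the libraries of both groups thinned to the smallest of them, 215 genes differed. The count depended on single libraries, from 2 without male ZT4 replicate 3 to 451 without male ZT4 replicate 2. Outside the clock, Sdf2l1, an endoplasmic reticulum chaperone gene, stood at 6.07, 19.1 and 7.6 CPM at ZT4 and 25.3, 33.3, 18.5 and 15.2 CPM at ZT16 in the males and fell in the females (log2 -1.04), a difference of 2.15 (SE 0.51, adjusted p = 0.0225). Fgf21, the fasting hormone gene, fell in the females (log2 -3.52) and stood at 11.4, 6.25 and 14.8 CPM at ZT4 and 4.62, 10.2, 10.9 and 7.31 CPM at ZT16 in the males (difference 3.11, SE 0.86, adjusted p = 0.0437), a call kept in 8 of 24 alternatives. Tap1, a transporter of peptides for antigen presentation, differed by 1.15 (SE 0.31, adjusted p = 0.0373), and the stress hormone gene Gdf15 by 2.65 (SE 0.74, adjusted p = 0.0431). Calls of Sdf2l1, Tap1 and Gdf15 were kept in 19, 15 and 10 of 24 alternatives. Ptp4a1, a phosphatase gene, differed by -1.56 (SE 0.36, adjusted p = 0.0216) and kept its call in 20 of 24.

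Of the called genes with at least 1 CPM and groups that did not overlap, Fras1 had the largest log2 rise in HFhf males. It encodes an extracellular matrix protein of basement membranes. It stood at 1.89, 4.66 and 1.95 CPM at ZT4 and 199.5, 74.4, 57.4 and 176 CPM at ZT16 (log2 5.54, SE 0.61, adjusted p = 8.77e-08). Every ZT16 library was far above every ZT4 library. Fras1 rose in CON males too (log2 4.04) and did not pass in HFhf females (log2 -0.22, adjusted p = 0.956), but neither difference passed (adjusted p = 0.59 and 0.101). Vdr, the vitamin D receptor gene, had 1, 2 and 0 reads at ZT4 and 18, 12, 18 and 13 reads at ZT16 (adjusted p = 0.00303), too few at ZT4 for a fold change. Nrg4, a secreted growth factor gene, went from 0.237, 0.858 and 0.877 to 13.7, 2.55, 4.06 and 6.73 CPM (log2 3.43, SE 0.78, adjusted p = 0.00604). All 4 ZT16 libraries were above the ZT4 libraries for each of these genes, and Nrg4 rose in the other 3 pairs of groups as well. The call of Nrg4 was lost when a library was left out (ZT4 replicate 1, adjusted p up to 0.0813).

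Lingo4, which encodes a leucine-rich repeat protein of the membrane, had the smallest adjusted p of the 20 genes of largest change: 62.5, 76.9 and 54.9 CPM at ZT4 and 275, 329.9, 299 and 313 CPM at ZT16 (log2 2.23, SE 0.21, adjusted p = 5.83e-10). Its libraries lay close together within each time. Sult2a6, a sulfotransferase gene for bile acids and steroids, rose from 8.6, 8.7 and 20.3 to 55.1, 41.9, 145 and 57 CPM (log2 2.58, adjusted p = 0.000549), with ZT16 replicate 3 the highest. Nat8 (log2 3.10, adjusted p = 0.000842), an acetyltransferase gene, Lonrf3 (log2 2.77, adjusted p = 7.53e-05), Atp6v1c2 (log2 2.31, adjusted p = 0.00551), a proton pump subunit gene, and Gfra3 (log2 2.21, adjusted p = 0.00942), a receptor gene of the GDNF family, complete the 10 largest rises with Cry1. Gfra3 lost its call when a library was left out (ZT4 replicate 1, adjusted p up to 0.0533). The Sult2a6 reads may be shared with near-identical copies of the Sult2a family, and its call was lost when only the compared groups were fitted (adjusted p = 0.119).

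Of the falls, Slc25a30, a mitochondrial carrier gene, went from 115, 22.9 and 192 CPM to 6.35, 20.4, 14.9 and 7.02 CPM (log2 -3.19, SE 0.65, adjusted p = 0.00312). ZT4 replicate 2 stood apart from the other ZT4 libraries, close to the ZT16 range. Klf9, a transcription factor gene induced by glucocorticoids and thyroid hormone, fell from 122, 60.3 and 109.5 to 19.9, 35.3, 38.4 and 44.7 CPM (log2 -1.50, SE 0.31, adjusted p = 0.00316), again with ZT4 replicate 2 lowest at ZT4. Upp2, a uridine phosphorylase gene, fell from 19.5, 17.7 and 7.6 to 3.46, 3.45, 1.43 and 3.8 CPM (log2 -2.31, SE 0.63, adjusted p = 0.0241). Acpp (log2 -1.47, adjusted p = 0.00691), an acid phosphatase gene, fell in HFhf males and in all 3 other pairs of groups. Cib2 (log2 -1.56, adjusted p = 0.0489) and Amigo1 (log2 -1.55, adjusted p = 0.0246) were close to the threshold or low in level. Calls ended when a library was left out for Upp2 (ZT4 replicate 1 or ZT16 replicates 1, 2 or 3, adjusted p up to 0.157), Cib2 (ZT4 replicates 1 or 3 or ZT16 replicates 2 or 3, adjusted p up to 0.213), Amigo1 (ZT4 replicates 2 or 3 or ZT16 replicates 1 or 3, adjusted p up to 0.132) and Hsd17b2 (ZT4 replicate 3, adjusted p up to 0.0926). Slc25a30 and Klf9 lost their calls when only the compared groups were fitted (adjusted p = 0.136 and 0.0775). The remaining falls among the 10 largest were Nr1d1, Dbp, Hsd17b2 and Nr1d2, described above.

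**Figure D4:**
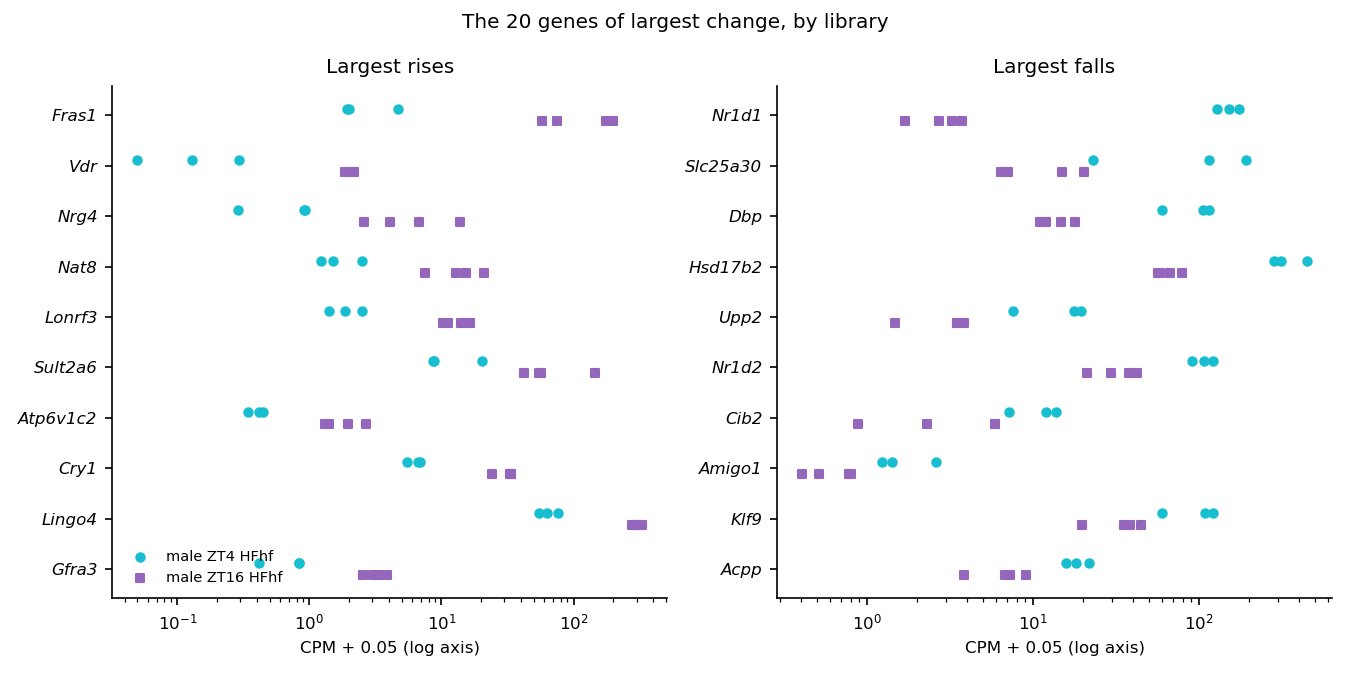
CPM plus 0.05 on a log axis in each HFhf male library at ZT4 (circles) and ZT16 (squares) for the 10 largest rises (left) and the 10 largest falls (right). The groups do not overlap for any of the 20, as the rule for naming them required, and Fras1 and Nr1d1 have the widest gaps.

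The bile acid genes that passed the edgeR test fell. Of 27 tested genes for bile acids and sterol transport, 3 fell and none rose, beside 1.99% lower and 2.44% higher among all tested genes. At an unadjusted p under 0.05 were 12 of the 27, 5 higher and 7 lower, beside 2028 of all 11047 tested genes. DESeq2 called 1 rise and 4 falls, and limma voom 2 rises and 4 falls. The median log2 fold change of the list was 0.14. Abcc2, the canalicular exporter of conjugated organic anions, fell from 897, 719 and 1058 to 333, 457, 414 and 246 CPM (log2 -1.30, SE 0.21, adjusted p = 9.42e-05), without overlap. Abcb11, the bile salt export pump, fell with overlap (log2 -0.48, SE 0.13, adjusted p = 0.0211). Cyp8b1, the 12-alpha hydroxylase that sets the share of cholic acid, fell from 244, 466 and 185 to 114, 152, 113 and 77.4 CPM (log2 -1.39, SE 0.35, adjusted p = 0.0137). Abcb11 was also called lower at ZT16 in CON males, HFhf females and IUGR-HFhf males. Abcc2 and Cyp8b1 were also called lower in HFhf females and IUGR-HFhf males. Cyp7a1, the rate-limiting enzyme of bile acid synthesis, was at 52.7, 209 and 47.3 CPM at ZT4 and 209, 138, 71.9 and 110.3 CPM at ZT16 and did not pass (log2 0.37, SE 0.60, adjusted p = 0.801). Its ZT4 replicate 2 was level with the highest ZT16 library, while CON males went from 80, 58.4 and 44.5 to 249.9, 335 and 312 CPM (log2 2.30, adjusted p = 0.0321). The difference from CON males was -1.93 (SE 0.87, adjusted p = 0.5). Leaving out a library ended the calls of Abcb11 (ZT4 replicates 1 or 2 or ZT16 replicates 1 or 3, adjusted p up to 0.103) and Cyp8b1 (ZT4 replicate 2 or ZT16 replicate 4, adjusted p up to 0.134), and without ZT16 replicate 3 the list held 1 rise and 2 falls. The log2 change of Cyp8b1 was -0.92 without ZT4 replicate 2.

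Alas1 and Pck1, which have a known daily rhythm, did not pass in HFhf males either. Alas1, the first enzyme of heme synthesis, overlapped (log2 0.14, SE 0.30, adjusted p = 0.861) and rose in CON males (log2 1.35, adjusted p = 0.00664), and its difference did not pass (-1.22, adjusted p = 0.301). Pck1, the gluconeogenic carboxykinase, stood at 1449, 1578 and 1652 CPM at ZT4 and 486, 1239, 432 and 1184 CPM at ZT16 (log2 -0.90, SE 0.50, adjusted p = 0.335), with ZT16 replicates 1 and 3 lowest.

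Among lipid genes, 1 or 2 members of each of 3 lists passed the test in HFhf males, beside 4.43% called over all tested genes. None of the 27 cholesterol genes passed in edgeR (5 with unadjusted p under 0.05, 1 called by DESeq2 and none by limma voom). Over all 11047 tested genes 2028 had an unadjusted p under 0.05. Of 24 genes for fatty acid and triglyceride synthesis 1 fell, the elongase gene Elovl5, from 383, 325 and 253 to 77.6, 200.3, 189 and 168 CPM (log2 -1.01, SE 0.22, adjusted p = 0.00471), and the desaturase gene Fads2 was just outside (log2 -1.06, adjusted p = 0.0585). Without ZT16 replicate 3, the library with muscle transcripts, this list held 1 rise and 3 falls, and both DESeq2 and limma voom gave 1 rise and 2 falls. Of 42 genes for fatty acid oxidation 1 rose and 1 fell. Cpt1a, which controls entry of fatty acids into mitochondria, fell from 711, 541 and 655 to 231, 186, 317 and 362 CPM (log2 -1.21, SE 0.32, adjusted p = 0.0189), and the peroxisomal thiolase gene Acaa1a rose (log2 0.54, adjusted p = 0.00902). The groups of Cpt1a did not overlap, and its difference from CON males did not pass (-1.61, adjusted p = 0.14). Of 24 genes for lipid droplets and lipoproteins, Mgll, a lipase of monoglycerides, rose (log2 0.53, adjusted p = 0.0343) and Apoa5, an apolipoprotein that lowers plasma triglyceride, fell (log2 -0.55, adjusted p = 0.0159). Of these calls, those of Elovl5 (ZT4 replicate 1, adjusted p up to 0.0618), Cpt1a (ZT4 replicates 1 or 3 or ZT16 replicates 1 or 2, adjusted p up to 0.11), Acaa1a (ZT4 replicate 3, adjusted p up to 0.0815), Mgll (ZT4 replicates 1 or 3 or ZT16 replicates 2, 3 or 4, adjusted p up to 0.213) and Apoa5 (ZT4 replicates 1 or 3 or ZT16 replicate 1, adjusted p up to 0.156) ended without the libraries given. Without ZT16 replicate 3 the lipid droplet list held no rise and 2 falls.

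Of 34 genes on the list of insulin, growth hormone and fasting signals, Socs2, Cish and Klf9 fell and none rose, beside 1.99% lower among all tested genes. Socs2, a feedback inhibitor of growth hormone signalling, stood at 28.2, 6.99 and 38.1 CPM at ZT4 and 3.69, 10.5, 2.98 and 0.877 CPM at ZT16 (log2 -2.47, SE 0.59, adjusted p = 0.0097), and it fell in the other 3 pairs of groups too. Cish, a second such inhibitor, stood at 6.71, 1.23 and 51.1 CPM at ZT4 and 0.924, 3, 3.22 and 1.9 CPM at ZT16 (log2 -3.14, SE 0.91, adjusted p = 0.0366). ZT4 replicate 2 was low for both and overlapped the ZT16 range, and Cish kept its call in 8 of 18 alternatives. Its size rested on ZT4 replicate 3, without which the log2 change was -0.92. Calls were lost for Socs2 (ZT4 replicates 1 or 3, adjusted p up to 0.108), Cish (ZT4 replicate 3 or ZT16 replicates 1, 2, 3 or 4, adjusted p up to 0.75) and Pgk1 (ZT4 replicate 3, adjusted p up to 0.116) when the named libraries were left out. Of 26 genes for glycolysis, fructose and glycogen 1 rose, beside 2.44% higher among all tested genes. It was the glycolytic kinase gene Pgk1 (log2 0.55, SE 0.14, adjusted p = 0.011). At an unadjusted p under 0.05 were 8 of the 26, 7 higher and 1 lower, beside 2028 of all 11047 tested genes. DESeq2 and limma voom each called 2 rises and 1 fall on this list. None of 37 genes for gluconeogenesis and amino acid breakdown passed in edgeR (4 with unadjusted p under 0.05, 1 by DESeq2 and 1 by limma voom). None of 17 glucocorticoid-responsive genes did (3 unadjusted, 1 by DESeq2, 1 by limma voom).

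Some antioxidant genes rose. Of 25 genes on the list of NRF2 and oxidative stress 4 rose and none fell, beside 2.44% higher among all tested genes. Sod2, the mitochondrial superoxide dismutase, rose from 77.4, 88 and 93.6 to 145, 133, 123 and 143 CPM (log2 0.66, SE 0.12, adjusted p = 0.000508), without overlap. The cytosolic dismutase gene Sod1 (log2 0.50, adjusted p = 0.0193), the peroxiredoxin gene Prdx5 (log2 0.57, adjusted p = 0.011) and the lipid peroxidase gene Gpx4 (log2 0.44, adjusted p = 0.031) rose by less. Gclc and Gclm, the NRF2 targets for glutathione synthesis on this list, did not pass. Sod2 kept its call with each library left out, while those of Sod1 (ZT4 replicates 1 or 3 or ZT16 replicate 2, adjusted p up to 0.168), Prdx5 (ZT4 replicate 1, adjusted p up to 0.068) and Gpx4 (ZT4 replicates 1 or 3 or ZT16 replicates 2 or 4, adjusted p up to 0.296) were lost without single libraries. Of 56 genes for drug and steroid metabolism 1 rose, the glutathione transferase gene Gsta1 (log2 0.76, SE 0.17, adjusted p = 0.00475), whose reads may be shared with close copies and whose call was lost when a library was left out (ZT4 replicate 1, adjusted p up to 0.0877). Without ZT16 replicate 3 that list held 4 rises. Of 23 heat shock and cold response genes 3 rose, beside 2.44% of all tested genes: Fkbp4 (log2 0.72, adjusted p = 0.00274), a co-chaperone of steroid receptors, Hspa4l (log2 1.11, adjusted p = 0.0366) and Hspa1b (log2 1.40, adjusted p = 0.0193). Without ZT16 replicate 3 only Fkbp4 of these 3 passed; calls were lost for Hspa4l (ZT4 replicates 1 or 3 or ZT16 replicates 2 or 3, adjusted p up to 0.218) and Hspa1b (ZT4 replicates 1 or 3 or ZT16 replicate 3, adjusted p up to 0.157). The log2 change of Hspa4l was 0.72 without ZT16 replicate 3. Hspa1b may share reads with its near-identical neighbour Hspa1a, so the level of either is uncertain.

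Xbp1, the transcription factor of the unfolded protein response (log2 -0.77, adjusted p = 0.0309), and Dnajb9, an endoplasmic reticulum chaperone gene (log2 -0.73, adjusted p = 0.0423), fell among 30 genes of that response, beside 1.99% lower among all tested genes. Both overlapped between times, and calls ended without single libraries for Xbp1 (ZT4 replicates 1 or 3 or ZT16 replicates 2, 3 or 4, adjusted p up to 0.334) and Dnajb9 (ZT4 replicate 3 or ZT16 replicates 2, 3 or 4, adjusted p up to 0.375). Without ZT4 replicate 3 their log2 changes were -0.49 for Xbp1 and -0.46 for Dnajb9. Of 29 cell division genes 3 rose, again beside 2.44%: Wee1, Tk1 and Pcna. Wee1, a kinase that the clock is known to drive, went from 3, 1.96 and 3.21 to 11.4, 7.8, 8.23 and 10.1 CPM (log2 1.76, SE 0.38, adjusted p = 0.00423). The other rises were Tk1 (log2 1.19, adjusted p = 0.000823), a thymidine kinase, and Pcna (log2 0.67, adjusted p = 0.0185), the replication clamp. Wee1 and Tk1 rose in all 4 pairs of groups, and Pcna was lost without some libraries (ZT4 replicates 1 or 3 or ZT16 replicate 2, adjusted p up to 0.144). Of 35 genes for polyamines, one-carbon and nucleotide synthesis Ahcy rose (log2 0.69, adjusted p = 0.0252), and Upp2 and the thymidine phosphorylase gene Tymp fell (Tymp log2 -1.28, adjusted p = 0.00303). Ahcy was lost without several libraries (ZT4 replicates 1, 2 or 3 or ZT16 replicates 1 or 4, adjusted p up to 0.144). None of 29 acute phase and coagulation genes passed in edgeR (3 unadjusted, 1 by DESeq2, 1 by limma voom), nor did any of 31 interferon response genes (2 unadjusted). DESeq2 and limma voom each called 1 interferon response gene higher and 1 lower. Over all 11047 tested genes 2028 had an unadjusted p under 0.05.

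**Figure D5:**
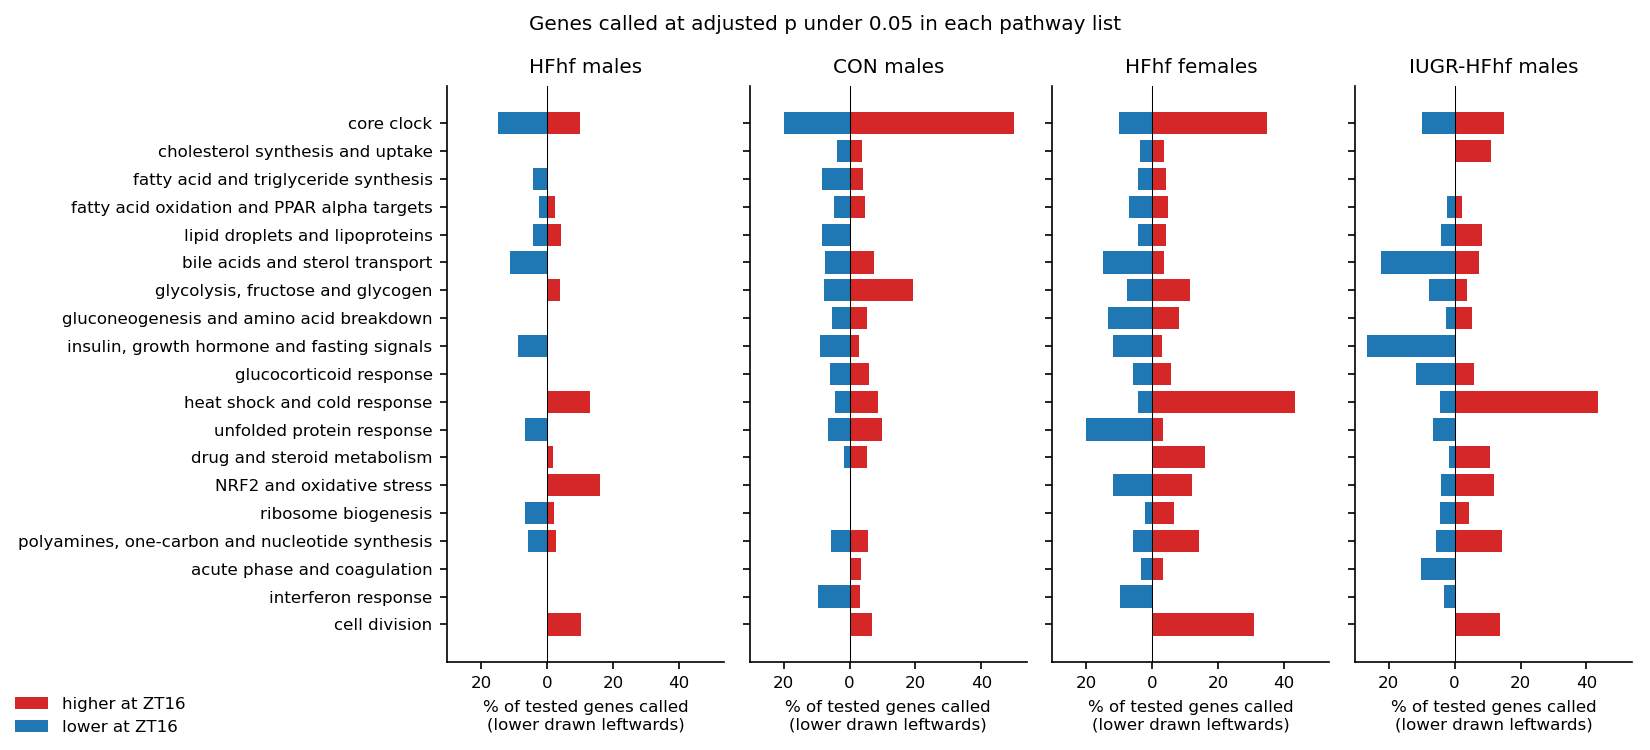
Share of the tested genes of each of 19 pathway lists that passed the test, drawn to the right where higher and to the left where lower at ZT16, in HFhf males, CON males, HFhf females and IUGR-HFhf males. In HFhf males the core clock list has the highest share called (5 of 20), and 5 lists have no called gene.

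Several genes of the cytosolic ribosome rose in HFhf males. They were set as a group, by symbol, after the values had been seen, and get no test as a group. Of 65 tested ribosomal protein genes 20 rose and none fell, beside 2.44% higher and 1.99% lower among all tested genes, with a median log2 fold change of 0.40 against 0.01 over all tested genes, and 53 of 65 were above 0. Rps26 (log2 1.54, adjusted p = 0.000292) and Rps15a (log2 1.45, adjusted p = 0.00896) were among the largest, and reads of such genes may be shared with processed pseudogenes. In IUGR-HFhf males 20 rose as well (median 0.41), in CON males 3 rose and 1 fell (median 0.15), and in HFhf females none passed in edgeR (median -0.04). Over all tested genes 10.8% were called in IUGR-HFhf males, 5.35% in CON males and 9.15% in HFhf females, in either direction. The difference from HFhf females passed for 11 of the 65, all upwards, beside 2.22% of all tested genes in either direction. Of 46 ribosome biogenesis genes, which make the ribosome in the nucleolus, Mrto4 rose (log2 0.62, adjusted p = 0.0064) and Utp14a (log2 -0.65, adjusted p = 0.0204), Ncl (log2 -0.48, adjusted p = 0.0408) and Ubtf (log2 -0.37, adjusted p = 0.0329) fell. The 3 falls were lost without single libraries, for Utp14a (ZT4 replicates 1 or 3 or ZT16 replicates 2 or 4, adjusted p up to 0.119), Ncl (ZT4 replicates 1 or 3 or ZT16 replicates 2, 3 or 4, adjusted p up to 0.221) and Ubtf (ZT4 replicates 1 or 3 or ZT16 replicates 2 or 4, adjusted p up to 0.323). Gene size moved with these calls: the median genomic span was 9.58 kb for genes called higher, 42.6 kb for genes called lower and 23.8 kb for all tested genes with a span in RefSeq (98.3% of them). In HFhf females the order was turned, with 37.5 kb for genes called higher and 17 kb for genes called lower, as was the order of depth. In CON males the medians were 24.2 kb for genes called higher and 38.9 kb for genes called lower. In IUGR-HFhf males they were 18.1 and 31.9 kb. Depth overlapped between times in both of these groups. CON males held 6.43 to 7.1 M reads at ZT4 and 5.55 to 9.05 M at ZT16. IUGR-HFhf males held 7.25 to 8.46 M and 6.73 to 7.6 M. In the difference of males from females the medians were 6.4 kb upwards and 54.5 kb downwards, and in the difference from CON males 31.2 and 30.1 kb. Counts thinned to equal depth gave 22 ribosomal protein genes higher and none lower in HFhf males; the part of gene size in these results was not tested.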

How the data were processed

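RNA-seq read counts per gene were deposited by the authors for 56 rat liver libraries; per the labels, ribosomal RNA was depleted, a stranded kit was used and sequencing was on an Illumina instrument. Tools listed in the submitters' processing notes are STAR, featureCounts (Subread), FastQC and DESeq2, on the rn6 build, without versions; the strand setting is not given in the sources used here. The tissue label says mouse liver and the organism label says rat.

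Of 17337 gene rows, 2487 had no read and 11047 passed edgeR's filterByExpr. Date-like symbols (26) and duplicated symbols (2) are among the rows. Counts were scaled by TMM and fitted with edgeR 4.0.16 (R 4.3.3) by robust quasi-likelihood over 56 libraries and 16 group means, with Benjamini-Hochberg adjustment over all tested genes at 0.05. CPM values use the scaled library sizes, and standard errors were taken from the F statistic, as the size of the change over its square root. Limma 3.58.1 voom and DESeq2 1.42.0 were alternatives, with other scalings, filters, sets of libraries and left-out libraries. All 7 libraries carried 6.38 to 11.4 M counted reads, and the number of libraries and reads limits the precision. Scripts were tested on simulated data.

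Genes named are the core clock list, the 10 largest called rises and falls with at least 1 CPM and groups that do not overlap, the 4 members of smallest p of each pathway list, genes of known rhythm, and the 4 largest differences in each direction. The members and lists were chosen with earlier results of these data known. The ribosomal protein genes and Gclc, Gclm and Lta4h were named after their values were seen. Promoter sequences and gene spans are from RefSeq, GRCr8. Replicates were not identical: chi-square per degree of freedom between libraries of a group was 14.0 to 34.1. Some genes that the rule names are not reported here.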

Additional observations from a re-analysis of the deposited data

Results flagged for a closer look

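In the ZT16 group of HFhf males 116 values were examined for a library far from the other 3 by Dixon's ratio, and 8 were found; chance alone gives about 1 in 20. Replicate 3 had a skeletal muscle marker sum of 760.1 CPM (9.65 to 11.4 in the others), Sult2a6 at 145.4 CPM (others at 41.9 or more), Cry1 at 23.97 CPM (32.9 to 33.6) and Upp2 at 1.43 CPM (3.45 to 3.80). Replicate 4 had Apob at 19571 CPM (15615 to 15766) and Gdf15 at 6.87 CPM (1.95 to 2.39). Replicate 1 had Clock at 123.0 CPM (104.1 to 106.7), and replicate 2 had Tap1 at 29.25 CPM (others lower).

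The time effect differed between HFhf males and CON males for 50 genes by the test of the difference itself. It differed between HFhf males and HFhf females for 245 genes.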

How the results depend on the processing

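Among the genes followed one by one, no called change or difference turned its sign in the alternatives run. The other called genes were not followed singly. With only the compared groups fitted, 26 of the 51 called genes followed in HFhf males lost their call and 25 kept it. Among the 26 were Socs2 (adjusted p = 0.214), Elovl5 (0.157), Tymp (0.091) and Mrto4 (0.0604). In HFhf males the count of 489 became 241 with only the compared groups fitted (191 shared), 785 without the IUGR-RC libraries (483 shared), 96 when a log2 change of at least 1 was also required, and 898 with limma voom. It ranged from 142 to 707 with a library left out. Counts of 436 (male libraries only), 494 (median-of-ratios scaling), 479 (upper-quartile scaling, 64.1% of calls higher), 397 (no filter), 505 (mean of at least 1 CPM) and 641 (DESeq2) stayed within 1.5 times. Alternatives chosen after seeing the data gave 541 without the 3 libraries of high Acta1 and 480 with thinned counts. CON males had 198 with a log2 change of at least 1 and 1336 with limma voom, and 332 to 413 with a library left out. HFhf females had 201 with a log2 change of at least 1, and 379 to 946 with a library left out. IUGR-HFhf males had 202 with a log2 change of at least 1, 1952 with limma voom, and 515 to 937 with a library left out. The difference from CON males had 88 with only the compared groups, 116 without IUGR-RC, 156 with limma voom, 85 with DESeq2, and 25 to 63 with a library left out (25 without ZT16 CON replicate 1). The difference from HFhf females had 511 without IUGR-RC, 135 without a filter, 83 with a log2 change of at least 1, 765 with limma voom, 426 with DESeq2, and 2 to 451 with a library left out (10 without female ZT4 replicate 1, 27 without male ZT4 replicate 1, 50 without male ZT16 replicate 2). The difference from IUGR-HFhf males had 1 with only the compared groups and 0 to 2 with a library left out. An added fold requirement lowers a count by construction; for the other alternatives, including those with fewer libraries, which raised some counts and lowered others, the cause was not tested. No paired analysis was possible because the titles share no replicate numbers between the groups compared. Depth of 6.38 to 11.4 M reads limits genes near 1 CPM, such as Vdr and Atp6v1c2.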
